A study of Mus musculus with 1111 samples.

Results

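Microglia that carried a strong signal of labelled plasma protein were compared with microglia that carried a weak one. The study injected 3-month-old mice with plasma proteins tagged with the amine-reactive fluorescent dye NHS-Atto647N and collected brain microglia 20 hours later. Single cells were sorted into wells by the dye signal inside them, as plasma none, plasma low or plasma high, and each cell was sequenced as a library of its own with Smart-seq2, which reads along whole transcripts. All cells, those of plasma none included, came from injected mice of that age. Their genotype, strain and sex, and how many mice were used, are not given in the sources used here. The question is what differs between cells that had taken up much and cells that had taken up little of the same labelled protein. Of 1111 labelled cells, 727 were titled plasma high or plasma low. By well and by the number after the letters TH in the title, 675 of these were matched to a column of read counts. A cell was kept when its gene reads came to 50000 or more, spread over no fewer than 500 genes. This left 641 cells of the 987 kept in all, of which 290 were plasma high and the rest plasma low. Plasma high held 96 and 93 cells in TH 2 and TH 3 and its remaining cells in TH 1. The meaning of the TH number is not given in the sources used here.

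Because the labels tie no cell to an animal, a group was treated as a single sample of cells, and the comparison rests on no test between the groups. Count tests on the sums are given only as alternatives, beside the other settings. The reads of the cells of a group were summed within each TH number, and levels are counts per 1000000 reads in genes (CPM) of these sums. A log2 ratio is log2 of (CPM + 1) in plasma high over (CPM + 1) in plasma low within a TH number, and is printed as the mean ± SD over the 3 TH numbers (n = 3). That SD measures the spread between the TH numbers, not a spread between animals. A CPM is not corrected for gene length, so levels are compared between groups and not between genes. In sums of cells, fewer cells that use a gene and less RNA of it per cell cannot be told apart, so shares of cells with a read are printed beside the levels.

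Microglia are the resident macrophages of the brain. They take up proteins and debris through receptors and endocytosis and pass them through endosomes to lysosomes, where proton pumps acidify the content and hydrolases digest it. At rest they express a homeostatic set of genes that includes P2ry12, a purine receptor, and Tmem119, a membrane protein. Around plaques and in demyelination they can adopt a state called disease-associated, in which Apoe, the main lipid carrier of the brain, and lysosomal and lipid genes are raised.

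The cells matched their label. All 641 cells carried at least 3 of 8 microglia markers at 10 CPM or more. Only 1 plasma high cell (0.345%) and 0 plasma low cells carried 3 markers of any of 10 other cell types. A count of 0 allows a share of up to 0.855% here, taken as 3 counts of the total. The 8 neutrophil and the 9 lymphocyte markers had no read in either group. Summed reads per group and TH number ranged from 23113876 to 49323522. The median reads per cell averaged 289558 in plasma high and 250870 in plasma low, a difference of 38688 ± 7398 that was positive in every TH number. After each cell was thinned to 50000 reads, the median number of genes per cell was 1875, 1650.5 and 1718 in plasma high and 2006, 1623 and 1810.5 in plasma low, a difference of -65.3 ± 82.7 that is smaller than its spread. Plasma low cells stood in plate columns 9 to 16 and plasma high cells in columns 17 to 24, so the group and the plate position cannot be told apart.

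Most genes differed little between plasma high and plasma low, and what differences there were agreed poorly between the TH numbers. Among 5706 genes that averaged 20 CPM or more and were read in 10% or more of plasma high or of plasma low cells, called tested genes here, the median size of the log2 ratio was 0.26 and the median SD over TH numbers 0.54. Across the tested genes the ratios of the TH numbers correlated with Pearson's r of 0.0629, 0.0194 and 0.0538, over genes that share libraries and are not replicates. Among the 796 genes of at least 200 CPM these correlations were 0.285, 0.119 and 0.100. A ratio of 2-fold or more whose sign was shared by all 3 TH numbers was met by 98 genes that were higher in plasma high (1.72%) and by 88 that were lower (1.54%). With at least 1.5-fold, 310 genes were higher (5.43%) and 5.84% of the genes were lower. Among the genes of at least 200 CPM, only 16 (2.01%) and 8 (1.01%) met the 1.5-fold rule. When a gene's top cell was dropped from every sum, 60 genes were higher (1.16% of 5153 that then passed both filters) and 2.85% were lower, while the median of all tested genes moved from 0.00 to -0.08. Apoe had the highest ratio of the genes that met the 2-fold rule.

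**Figure D1:**
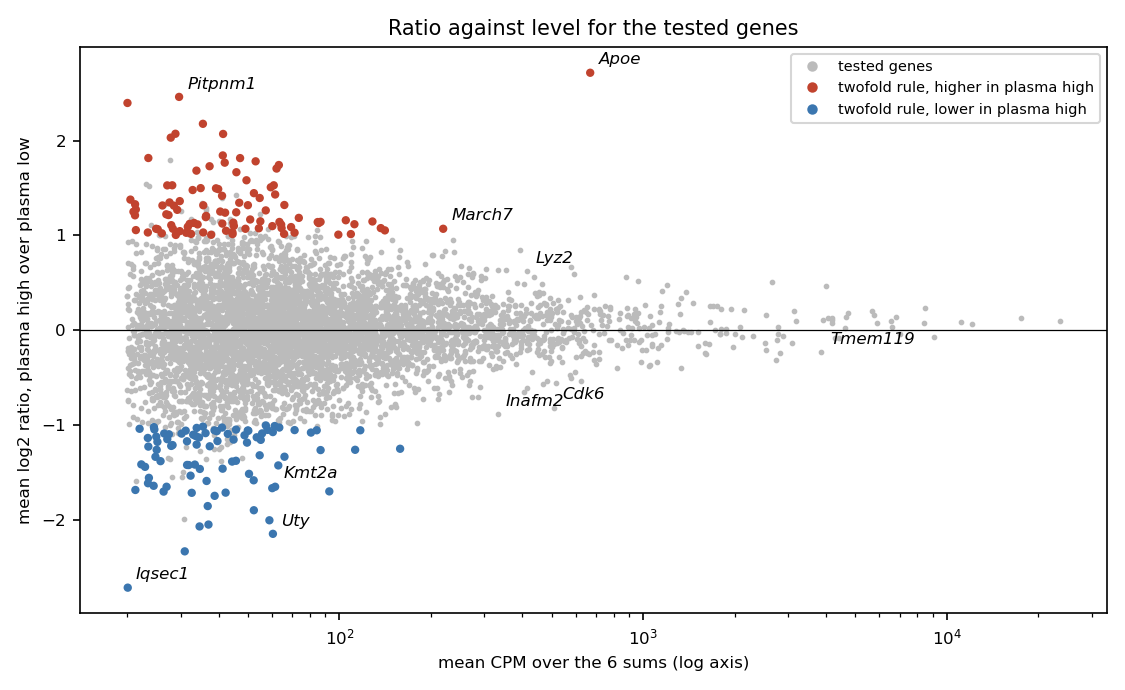
Mean log2 ratio of plasma high over plasma low (y axis) against the mean CPM over the 6 sums (x axis, log scale) for 5706 tested genes, with the 98 higher genes in red and the 88 lower genes in blue. Most 2-fold genes lie at the low end of the level, while Apoe, at 2.72, lies apart at a mean of 669.7 CPM.

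Apoe, the secreted lipid carrier (GRCm38 chromosome 7, 19696109 to 19699188, minus strand, as the tables give it), stood above its plasma low level in every TH number of plasma high. Its level was 144.6, 113.8 and 186.1 CPM in plasma low and 631.9, 597.6 and 2344 CPM in plasma high in TH 1, 2 and 3. The groups did not overlap, and TH 3 of plasma high was the highest of all sums. In plasma none the level was 55.3, 181.8 and 63.7 CPM, so plasma low overlapped plasma none. The log2 ratio of plasma high over plasma low was 2.72 ± 0.82, a 6.57-fold difference, and 2.52 after dropping the top cell from every sum. Over 11 alternative settings it ranged from 2.25 to 3.02, and it was 2.87 in the plate columns nearest each other.

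More plasma high cells held Apoe reads, and they held more of them. At 50000 reads per cell, 78 of 290 plasma high cells (26.9%, exact 95% interval 21.9% to 32.4%) and 53 plasma low cells (15.1%, 11.5% to 19.3%) had an Apoe read, beside 8.09% in plasma none. By TH number the share was 23.8%, 28.1% and 29.03% in plasma high and 16.9%, 14.5% and 13.8% in plasma low, with no overlap. These intervals cover counting error only. Among cells with a read the median Apoe level was 1110 CPM in plasma high and 373.4 CPM in plasma low. A level of 1000 CPM or more was reached by 40 of 290 plasma high cells (13.8%) and 14 plasma low cells (3.99%). A level of 10000 CPM or more was reached by 7 plasma high cells (2.41%) and 0 plasma low cells, which allows a share of up to 0.855%. Of these 7 cells 6 were in TH 3 (6.45% of its plasma high cells), 1 was in TH 2 (1.04%) and 0 were in TH 1, which allows up to 2.97%, so the highest levels rested on TH 3. The difference in level lay in few cells: the top 4 plasma high cells held at least 50% of all Apoe reads of that group. Other cell types also express Apoe, so their markers are set beside it. The 7 astrocyte markers summed to between 0 and 4.95 CPM in plasma high and between 0 and 6.94 CPM in plasma low, and Aqp4, Gja1, Aldh1l1, Agt and Clu had no read in either group. Of 10 markers of border-associated macrophages, Pf4, Lyve1, Cd163, F13a1, Ms4a7 and Cd209f had no read in either group. Their sum was between 102.7 and 225.3 CPM in plasma high and between 137.9 and 145.7 CPM in plasma low, most of it Stab1 (142.5 and 132.1 CPM on average), a scavenger receptor. Of 7 monocyte markers 6 had no read in either group. Of the 7 oligodendrocyte markers, Mbp, a myelin protein, averaged 44.3 CPM in plasma high and 17.1 CPM in plasma low, and Mog and Cldn11 had no read. Snap25, a neuron marker, averaged 18.3 and 0.775 CPM. The part of these reads in the results was not tested.

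**Figure D2:**
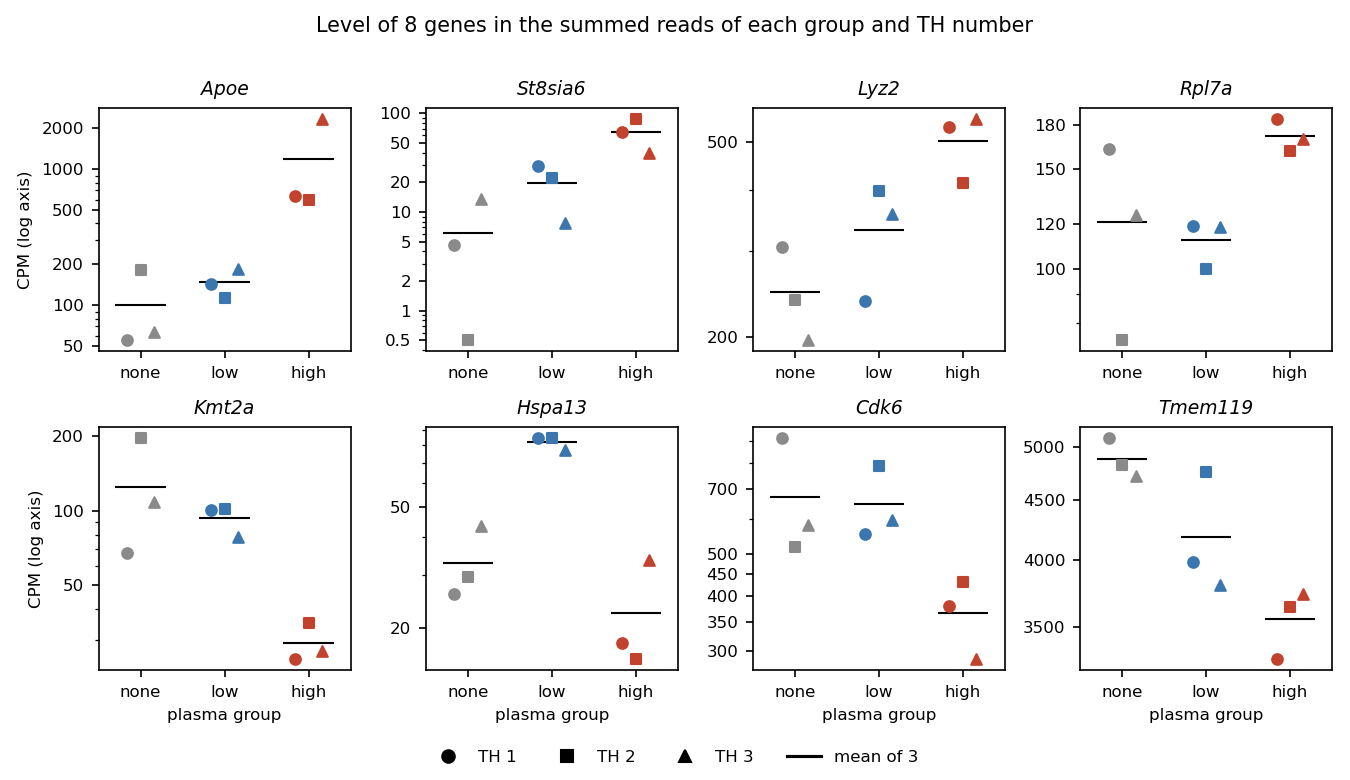
CPM (y axis, log scale, a different range in each panel) of 8 genes in the summed reads of plasma none, low and high, with a symbol for each TH number and a line at the mean of 3. Apoe, St8sia6, Lyz2 and Rpl7a lie higher in plasma high than in plasma low without overlap, and Kmt2a, Hspa13, Cdk6 and Tmem119 lie lower without overlap.

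Other genes of the disease-associated list leaned higher in plasma high too, by smaller ratios. Of the 21 of 25 listed genes that reached a mean of 5 CPM, 9 were higher in all 3 TH numbers and 0 were lower in all 3. Over all 10398 genes of that level, 1271 (12.2%) were higher in all 3 and 1355 (13%) were lower. The list's median log2 ratio was 0.16, with 0.35, 0.15 and 0.12 in the TH numbers, beside -0.01 over all genes of at least 5 CPM. Earlier work on these data had pointed to Apoe and other genes of this list, so the list is no independent evidence. Lyz2, the lysozyme of macrophages (chromosome 10, 117277331 to 117282321, minus strand), stood at 237.1, 397.2 and 357.4 CPM in plasma low and 536.4, 412.2 and 557.2 CPM in plasma high, a log2 ratio of 0.62 ± 0.56. All 3 plasma high sums lay above all plasma low sums, but in TH 2 the groups were nearly level. Its share of cells was more regular, with 56.6% in plasma high, 43.9% in plasma low and 30.3% in plasma none, and a difference of 12.7 ± 1.48 percentage points between the first and second. Cd52, a small surface glycoprotein, was in 45.2% of plasma high and 34.2% of plasma low cells, but its log2 ratio of 0.42 ± 0.49 rested mainly on TH 1 (0.98, 0.15 and 0.12). The chemokine Ccl6 had a log2 ratio of 0.56 ± 0.07, Fth1, the ferritin heavy chain, 0.25 ± 0.13, and Ctsb, the protease cathepsin B, 0.11 ± 0.01. Axl, a receptor for dying cells, had 2.07 ± 0.87 at a mean of 24.3 CPM. Cst7, a cathepsin inhibitor, had 1.31 ± 0.43, and Itgax, an integrin subunit, 1.33 ± 0.93, both at 10 CPM or less. Lpl, the lipoprotein lipase, gave 0.02 ± 2.31 and kept no direction. One plasma low cell held 67.8% of that group's Lpl reads. Trem2, the receptor that the state depends on, gave -0.05 ± 0.25, and its adaptor Tyrobp 0.11 ± 0.16.

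The homeostatic genes differed by small ratios, and more of them kept a lower sign than a higher one. Of 20 listed genes, all measured, 8 (40%) were lower in plasma high in all 3 TH numbers and 2 (10%) were higher, beside 13% and 12.2% of all genes of at least 5 CPM, and none reached 1.5-fold. The median log2 ratio was -0.02, close to the -0.01 of all genes. Summed over the list, the level averaged 95684 CPM in plasma high and 93756 CPM in plasma low. Per cell, the median of this sum differed by 949.7 ± 3240 CPM, less than its spread. Tmem119 stood at 3977, 4759 and 3806 CPM in plasma low and 3281, 3639 and 3737 CPM in plasma high, a log2 ratio of -0.23 ± 0.19. The groups did not overlap, though TH 3 differed by only -0.03. Slc2a5, a fructose transporter, had -0.31 ± 0.13, Sall1, a transcription factor of microglia, -0.22 ± 0.19, and Fcrls, a surface receptor, -0.21 ± 0.18. P2ry12 had -0.07 ± 0.04 and was in 98.97% and 99.7% of thinned cells. Csf1r, the receptor for the growth factors microglia need to survive, was higher, with 0.14 ± 0.08.

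The genes of uptake and digestion, the route plasma protein takes through the cell, did not differ as a group in 1 direction. Among receptors, 13 of 25 listed scavenger, lipoprotein, transferrin and Fc receptor genes were measured. Only Fcer1g, the signalling chain of Fc receptors, kept its sign, with 0.13 ± 0.11. Fcgr1, an Fc receptor for IgG, had 0.29 ± 0.39. Lrp1, a large endocytic receptor, had 0.21 ± 0.34. Of 24 measured coat genes 6 (25%) were higher in all 3 TH numbers and 2 (8.33%) were lower. Over all genes of at least 5 CPM these shares were 12.2% and 13%. Cltc, the clathrin heavy chain, had 0.57 ± 0.42 and Necap2, an adaptor-binding protein, 0.24 ± 0.06, while Picalm, a clathrin assembly protein, had -0.34 ± 0.09. The median of the coat list was 0.24, but -0.01 and -0.10 in TH 2 and TH 3, so it rested on TH 1. Among Rab GTPases, which direct vesicle traffic, 5 of 30 (16.7%) were lower in all 3, near the 13% of all genes, and 2 (6.67%) were higher. The median of the Rab list was -0.14, with a mean ratio above 0 for 12 genes. The 1.5-fold rule was met by 1 Rab gene each way. Rab35, the highest at 20 CPM or more, had 1.11 ± 2.18 and did not keep its sign. Rab27a, known in secretion, had -0.77 ± 0.27, Rab2a, of the early secretory route, -0.37 ± 0.30, and Rab14, of endosomes and the Golgi, -0.11 ± 0.07. Rab7, of late endosomes, had -0.32 ± 0.45 and did not keep its sign.

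Of 16 measured subunits of the V-ATPase, the proton pump of lysosomes, only Atp6v1a (6.25%) was higher in all 3 TH numbers and 2 (12.5%) were lower. Over all genes of at least 5 CPM these shares were 12.2% and 13%. Atp6v1a, the catalytic subunit, stood at 113.5, 62.3 and 55.2 CPM in plasma low and 144.01, 120.2 and 96.2 CPM in plasma high. The log2 ratio was 0.69 ± 0.31, with overlap of the groups across TH numbers. It was 0.03 in the nearest plate columns, and the share of cells, 19.3% and 17.7%, differed by 1.57 ± 6.19 points. Atp6v0c and Atp6v1g1, other subunits of the pump, were lower in all 3, with -0.34 ± 0.22 and -0.20 ± 0.18. The 37 lysosomal genes had a median of 0.09. Of them 8 (21.6%) were higher in all 3 and 3 (8.11%) were lower, beside the same 12.2% and 13% of all genes. The higher ones included Ctss, a cysteine protease (0.24 ± 0.18), Npc2, which carries cholesterol in the lysosome (0.29 ± 0.11), Lipa, the acid lipase (0.29 ± 0.32), and Plbd2 (0.46 ± 0.22). Ctsa, a carboxypeptidase, had -0.17 ± 0.07, Glb1, the beta-galactosidase, -0.64 ± 0.47, and Neu1, a sialidase, -0.87 ± 0.75. Lipid handling, with 20 genes measured, had 4 (20%) higher and 1 (5%) lower in all 3. Beside Apoe, Npc2 and Lipa, the fourth was Srebf1, a regulator of lipid synthesis (0.51 ± 0.12). Npc2 and Lipa stand on both lists.

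**Figure D3:**
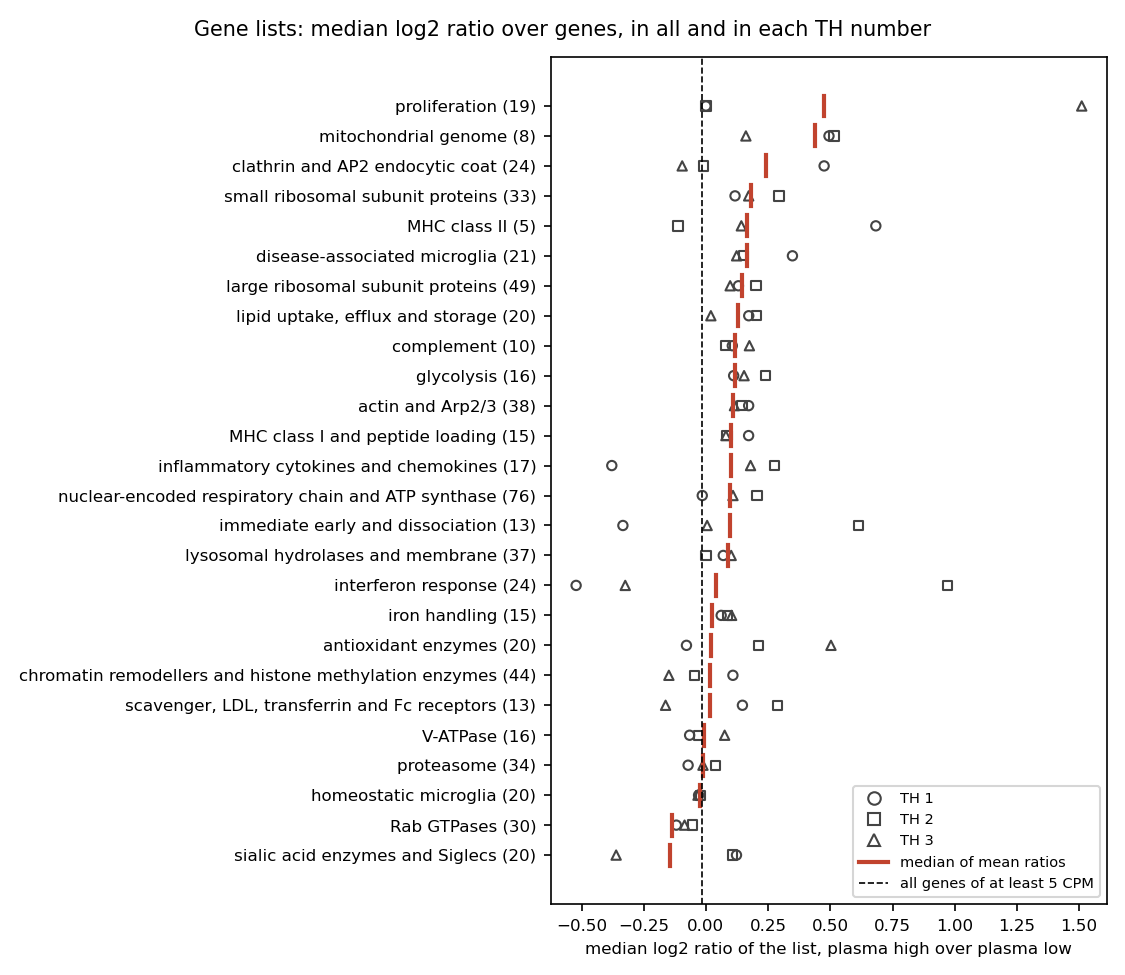
Median log2 ratio of plasma high over plasma low for each gene list (x axis), with the number of genes measured in brackets, as a red bar for the mean ratios and an open symbol for each TH number. The ribosomal, mitochondrial and disease-associated lists lie above the dashed line of all genes in every TH number. So do several others, among them the actin, complement, glycolysis, class I, lipid, iron and lysosomal lists. The interferon and proliferation lists scatter widely.

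Genes of the actin cytoskeleton, which drives engulfment and motility, leaned higher in plasma high. Of 38 genes 11 (28.9%) were higher in all 3 TH numbers and 1 (2.63%) was lower, beside 12.2% and 13% of all genes of at least 5 CPM. The median of the list was 0.11 (0.17, 0.15 and 0.11), but no gene of it reached 1.5-fold. Msn, which links actin to the membrane, stood at 292.1, 347.4 and 423.9 CPM in plasma low and 593.9, 487.7 and 481.7 CPM in plasma high, without overlap, at 0.56 ± 0.42. Rac2, a GTPase of blood cells, had 0.40 ± 0.21, Rhoa, another small GTPase, 0.27 ± 0.10, and Cfl1, which severs filaments, 0.19 ± 0.06. Arpc1b, of the complex that branches filaments, was the lower one at -0.19 ± 0.09.

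Immune effector genes gave a mixed picture. Over all genes of at least 5 CPM, 12.2% were higher in all 3 TH numbers and 13% were lower. In the complement list 6 of 10 measured genes (60%) were higher in all 3 and 2 (20%) were lower, with a median of 0.12. C1qb and C1qc, chains of the first component, had 0.10 ± 0.09 and 0.10 ± 0.07, while the third chain, C1qa, had -0.06 ± 0.04. Among 15 class I antigen presentation genes, 4 (26.7%) were higher and 2 (13.3%) lower. H2-D1 and H2-K1, the classical heavy chains, had 0.48 ± 0.28 and 0.31 ± 0.20. They are near copies of each other and other H2 genes, and how reads were shared between copies is not given in the sources used here. B2m, their light chain, had 0.16 ± 0.21, and Tapbpl, a peptide editor, -1.16 ± 0.69. For class II, Cd74, the invariant chain, had 0.79 ± 2.20 and went the other way in TH 3 (-1.74). The top plasma low cell held 77.7% of that group's Cd74 reads, and the ratio was 1.46 after dropping the top cell from every sum. Its share of cells was 9.66% in plasma high and 4.56% in plasma low, 5.11 ± 2.70 points higher. Interferon response genes had medians of -0.52, 0.97 and -0.32 in the 3 TH numbers. In all 3, 2 of 24 (8.33%) were higher and 2 (8.33%) lower. Of 17 cytokine and chemokine genes, Ccl4 alone was higher in all 3, with 2.42 ± 1.38, and it was -0.51 after dropping the top cell from every sum, since 1 cell held 80.2% of the plasma high reads. Il18 alone was lower in all 3, with -1.06 ± 0.96. Of 13 immediate early and dissociation genes, 1 (7.69%) was higher (Jund, 0.52 ± 0.36) and 1 lower (Jun, -0.68 ± 0.20) in all 3.

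Ribosomal protein genes leaned higher in plasma high by small ratios. For the large subunit 15 of 49 genes (30.6%) were higher in all 3 TH numbers, 0 were lower and 34 were mixed, with a median of 0.15 (0.13, 0.20 and 0.10). For the small subunit 15 of 33 (45.5%) were higher, 1, Rps21, was lower and 17 were mixed, with a median of 0.18 (0.12, 0.29 and 0.17). Over all genes of at least 5 CPM, 12.2% were higher in all 3 and 13% were lower. The mean ratio was below 0 for 8 genes of the large and 10 of the small subunit. Per cell, the large subunit genes took a median of 7270, 6009 and 6377 CPM in plasma high and 6744, 5238 and 5758 CPM in plasma low. The difference was 638.6 ± 123.4 CPM, positive in each TH number, and for the small subunit it was 599.2 ± 117.1 CPM. At 50000 reads per cell, 16 of 49 and 15 of 33 genes had a higher share of cells in all 3, and 2 and 1 a lower one. Over all genes of at least 5 CPM these were 11.4% and 14.4%. Rpl7a, of the large subunit, stood at 119.2, 99.8 and 118.7 CPM in plasma low and 184.4, 161.9 and 170.1 CPM in plasma high, without overlap. Its log2 ratio was 0.61 ± 0.09, and 62.8% of plasma high and 50.1% of plasma low cells had a read. Rpl27a, also of the large subunit, had 0.72 ± 0.42 and Rps4x, of the small subunit, 0.47 ± 0.27. Over 12 alternatives the medians stayed between 0.11 and 0.19 for the large subunit and between 0.15 and 0.25 for the small subunit. Many ribosomal protein genes have near-identical pseudogenes, so single genes are uncertain where the authors' counting could split reads.

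Ribosomal protein messages typically begin with a run of C and T bases, through which their translation is tuned together, so the bases at the starts of 3 of them are shown beside Apoe and Lyz2. Each window runs from 20 bases before the RefSeq start to 10 bases from it on, 5′ to 3′ on the gene's strand in GRCm38.p6, and capitals mark the longest run of C or T of at least 8 bases.
Rpl7a: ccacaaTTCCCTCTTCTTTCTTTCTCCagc
Rpl27a: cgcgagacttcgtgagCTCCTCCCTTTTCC
Rps4x: aaagtctgaggctgggcggagcaacccagg
Apoe: aggcatccaaactccaCCTCTTTCCTCTgc
Lyz2: caggcatgCTTTCTCTagtcagccagcagc
The windows are chr2:26910787-26910816 (plus strand), chr7:109519175-109519204 (plus), chrX:102189382-102189411 (minus), chr7:19699179-19699208 (minus) and chr10:117282263-117282292 (minus). The Apoe window is 1 of 3 starts in the table, and the only one of them with a run. Of 82 ribosomal protein genes 61 had a start in the table, and 29 of these (47.5%) held such a run on their own strand. Among other tested genes 681 of 4408 with a start (15.4%) held one, and among all 27025 genes 3927 (14.5%). Rpl7a, Rpl27a, Apoe and Lyz2 held a run and Rps4x did not, although all 5 were higher in plasma high. The runs of Rpl7a, Rpl27a and Apoe cross the annotated start. That of Lyz2 lies wholly before it and so outside the annotated message. The counts take a run anywhere in the window, so they are not counts of messages that begin with one. The runs describe these windows only.

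Transcripts of the mitochondrial genome were higher in plasma high as well. All 8 measured genes had a mean ratio above 0, with a median of 0.44 (0.49, 0.51 and 0.16). Of them 5 (62.5%) were higher in all 3 TH numbers, beside 12.2% of all genes of at least 5 CPM. They included mt-Co1, a subunit of the terminal oxidase (0.46 ± 0.12), and mt-Cytb, cytochrome b (0.51 ± 0.12). The mitochondrial share of reads, also a measure of RNA quality, was 1.02%, 1.15% and 0.751% per cell in plasma high and 0.878%, 0.857% and 0.721% in plasma low, at the median. The difference was 0.156 ± 0.133 percentage points, and plasma none averaged 0.604%. Its part in the other results was not tested. In the nearest plate columns the list's median was 0.23. Nuclear genes of the respiratory chain and ATP synthase had a median of 0.10, with 13 of 76 (17.1%) higher in all 3 and 4 (5.26%) lower. Over all genes of at least 5 CPM these shares were 12.2% and 13%. Atp5c1, of the ATP synthase, had 0.49 ± 0.43, and Cox7a2, of the terminal oxidase, -0.85 ± 0.13. In glycolysis 7 of 16 genes (43.8%) were higher and 2 (12.5%) lower. They included Ldha, the lactate dehydrogenase (0.46 ± 0.24), Pkm, the pyruvate kinase (0.33 ± 0.14), and Gpi1, which makes fructose phosphate (0.58 ± 0.44), while Pgk1, a kinase of the same route, had -0.64 ± 0.28. Of 20 antioxidant genes 4 (20%) were higher and 3 (15%) lower, and of 34 proteasome genes 3 (8.82%) and 4 (11.8%). The proteasome shares lie near those of all genes.

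The other genes with the largest 2-fold differences stood at low levels and in few cells. After Apoe, the highest ratios were those of Pitpnm1, a lipid transfer protein (2.46 ± 1.42), Myo5a, a vesicle motor (2.40 ± 1.71), and Lrp6, a Wnt co-receptor (2.18 ± 1.68). B3gat2, a glucuronyltransferase (2.07 ± 0.06), Galc, a lysosomal galactosylceramidase (2.03 ± 1.29), Ank, a pyrophosphate transporter (1.84 ± 1.12), and Xpo7, a nuclear export receptor (1.82 ± 1.10), followed. All of these after Apoe passed the 10% filter through plasma high only. Before thinning, 10.7% to 14.1% of plasma high and 3.13% to 9.12% of plasma low cells had a read of them. The filter thus let them in by the group where they are high. B3gat2 was the most regular of them, with 14.5, 7.83 and 8.85 CPM in plasma low and 67.3, 35.3 and 39.5 CPM in plasma high. Its groups did not overlap, and 10.3% of plasma high and 3.42% of plasma low cells had a read. Galc differed by 2.65 and 2.90 in TH 1 and TH 2 but by 0.55 in TH 3. One plasma high cell held 39.2% of that group's Lrp6 reads.

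The lowest ratios of the genes that met the 2-fold rule were those of Iqsec1, an exchange factor for ARF GTPases (-2.72 ± 0.55), Lrp4, a relative of the LDL receptor (-2.33 ± 2.58), and Uty, a demethylase gene of the Y chromosome (-2.15 ± 1.02). Ugdh, which makes UDP-glucuronate (-2.07 ± 0.87), Ddx49, an RNA helicase (-2.05 ± 1.09), and Paxbp1 (-2.01 ± 0.99) came next, before Hspa13, a chaperone of the HSP70 family (-1.90 ± 0.63), and Tecpr1, an autophagy protein (-1.86 ± 0.99). Hspa13 stood at 84.7, 84.8 and 76.96 CPM in plasma low and 17.9, 15.8 and 33.5 CPM in plasma high, without overlap, and in 15.1% and 8.97% of cells. Plasma none, at 32.9 CPM on average, lay near plasma high here. The Iqsec1 difference was one of level in few cells, with 8.28% and 8.26% of cells and 42.4% of the plasma low reads in 1 cell. In the nearest plate columns it was -0.89. Uty stood beside Kdm5d, another demethylase gene of the Y chromosome, which went the other way (1.32 ± 0.35), so these Y-linked genes differed in opposite directions. Xist was read in 1 of the 641 cells, and that cell also had a Y-linked read. Ddx3y, Eif2s3y, Kdm5d or Uty, all Y-linked, was read in 65, 53 and 46 plasma high cells of TH 1, 2 and 3. In plasma low the numbers were 69, 62 and 62 cells.

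Among genes of at least 200 CPM, 17.5% were higher in plasma high in all 3 TH numbers and 13.6% were lower. After Apoe the highest ratios among them were those of March7, a ubiquitin ligase (1.07 ± 0.48), Tasor, a silencing factor (0.95 ± 0.41), and Tug1, a long noncoding RNA (0.84 ± 0.73). Jak1, a kinase of cytokine receptors (0.84 ± 0.19), and Tpd52 (0.80 ± 0.30) came next. Jak1 stood at 161.02, 177.8 and 139.01 CPM in plasma low and 330.7, 282.1 and 244.8 CPM in plasma high, without overlap. Its share of cells was 41.4% and 38.2%. With each cell weighted alike, the ratios were 0.59 for March7, 0.48 for Tasor, 0.50 for Tug1, 0.33 for Jak1 and 0.65 for Tpd52. The lowest ratios were those of Inafm2 (-0.89 ± 0.24), Cdk6, a cell cycle kinase (-0.82 ± 0.26), Ubap2l (-0.73 ± 0.29), Phactr2 (-0.71 ± 0.57), Irf2bp2, a transcriptional repressor (-0.68 ± 0.34), and Sox4, a transcription factor (-0.66 ± 0.24). With each cell weighted alike, the values were -0.42 for Inafm2, -0.17 for Ubap2l and -0.65 for Cdk6. Cdk6 stood at 554.3, 790.5 and 596.4 CPM in plasma low and 381.3, 431.3 and 288.5 CPM in plasma high, without overlap, and its ratio was -0.35 in the nearest plate columns. Phactr2 turned to 0.21 in those columns. Sox4 was in 30.7% of plasma high and 40.2% of plasma low cells, a difference of -9.52 ± 1.45 points.

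**Figure D4:**
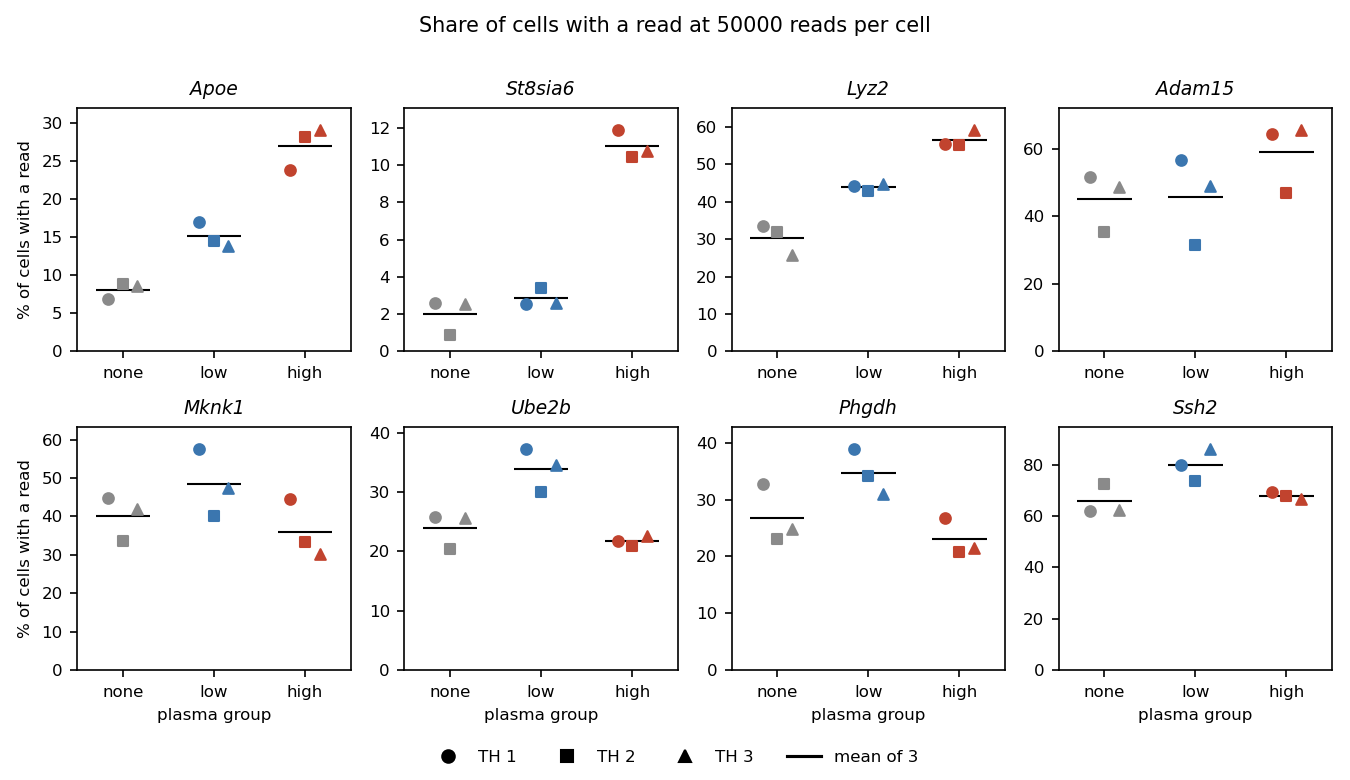
Share of cells with a read (y axis, percent, from 0) of 8 genes at 50000 reads per cell in plasma none, low and high, with a symbol for each TH number and a line at the mean of 3. Apoe, St8sia6 and Lyz2 are in more plasma high than plasma low cells without overlap, and Ube2b, Phgdh and Ssh2 are in fewer without overlap.

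Counted by cells at equal reads, 662 tested genes had a higher share in plasma high in all 3 TH numbers (11.6%) and 923 a lower one (16.2%). The largest differences upward in share were those of Adam15, a membrane protease (58.97% against 45.9%), Pnisr, a nuclear splicing-related protein (58.3% against 45.3%), and Lyz2, with Rpl7a and Apoe next. The share of Pnisr was higher in all 3 TH numbers, while its level was lower in TH 1 (-0.46) and higher in the other 2. The largest differences downward were those of Mknk1, a kinase of translation initiation (36.2% against 48.4%), and Ube2b, a ubiquitin-conjugating enzyme (21.7% against 33.9%). Ssh2, a cofilin phosphatase (67.9% against 79.8%), Phgdh, which begins serine synthesis (23.1% against 34.8%), and Atxn7l3b (34.5% against 45.6%) followed. Phgdh was low by both measures, with 124.1, 157.8 and 124.1 CPM in plasma low and 81.6, 78.9 and 74.7 CPM in plasma high, a log2 ratio of -0.77 ± 0.20. Ube2b likewise had -0.96 ± 0.48. For Mknk1 the level, at -0.29 ± 0.36, did not keep its sign.

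The sialic acid and chromatin lists each held a few members with large ratios, while most of their members did not keep 1 sign. St8sia6, a sialyltransferase (chromosome 2, 13651021 to 13794064, minus strand), stood at 28.98, 21.997 and 7.82 CPM in plasma low and 64.95, 87.8 and 40.1 CPM in plasma high. The groups did not overlap, and the log2 ratio was 1.77 ± 0.56. A read was found in 32 of 290 plasma high cells (11.03%) and in 10 plasma low cells (2.85%), beside 2.02% in plasma none, and the difference was 8.17 ± 1.17 points. Its relative St8sia4 had 2.17 ± 1.92. Over the sialic acid list, 2 of 20 genes (10%) were higher in all 3 TH numbers and 2 (10%) were lower. Over all genes of at least 5 CPM these shares were 12.2% and 13%. The median of the sialic acid list was -0.14 (0.12, 0.11 and -0.36 in the TH numbers). Kmt2a, a histone H3 methyltransferase (chromosome 9, 44803355 to 44881296, minus strand), stood at 100.7, 102.1 and 78.3 CPM in plasma low and 25.2, 35.1 and 27.3 CPM in plasma high, without overlap, at -1.65 ± 0.26. Over 11 alternatives it ranged from -1.73 to -1.39. Chd8, a chromatin remodeller, had -1.58 ± 0.24, Bptf, another one, -0.68 ± 0.43, and Ezh2, a histone H3 methyltransferase of silenced genes, 1.47 ± 0.60. Over the chromatin list 5 of 44 genes (11.4%) were higher and 6 (13.6%) lower, near the shares of all genes, with a median of 0.02. Of 15 iron genes 4 (26.7%) were higher and 1 (6.67%) lower, among them Ftl1, the ferritin light chain (0.16 ± 0.09), and Blvra, a biliverdin reductase (-0.94 ± 0.48). Proliferation genes had medians of 0.00, 0.00 and 1.51, and 1 of 19 (5.26%) was higher and 2 (10.5%) were lower in all 3.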

How the data were processed

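Single microglia were profiled by Smart-seq2. Per the submitters' processing notes, bcl2fastq, Trim Galore, STAR 2.5.3a, Seurat and the build mm10 were used. How reads were assigned to genes, and whether by strand, is not given in the sources used here, so overlapping genes and near copies are uncertain. The deposited tables hold 1 read count per gene and cell, for 35583 genes. In 1 deposited column some values were not whole and were taken to be expected counts and rounded. Per the file headers, TH 2 and TH 3 came from alignments reduced to top hits, and TH 1 carries no such note. No columns were left unmatched (0). Each cell was in its own well, so doublets were not called, and cells were not clustered.

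Reads were summed per group and TH number and scaled with TMM factors (edgeR 4.0.16, R 4.3.3), with a pseudocount of 1 CPM. Shares of cells used cells thinned to 50000 reads (seed 1), with exact Clopper-Pearson intervals. The labels give no animals, so edgeR and DESeq2 1.42.0 tests on the 6 sums (adjusted p threshold 0.05) were alternatives only. The computations were tested on simulated data. Other alternatives changed the scaling, pseudocount, filters, cells, plate columns and TH numbers.

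The members, the 27 gene lists and 11 marker lists were chosen with earlier results of these data known. Genes were named by a fixed rule: the 8 highest and 8 lowest ratios past 2-fold, the 6 highest and 6 lowest among genes of at least 200 CPM, each list's highest and lowest ratio at 20 CPM or more, the 5 largest differences in share each way, and 10 genes of earlier interest (Apoe, Lyz2, Cd52, Cd74, Lpl, St8sia6, Atp6v1a, Tmem119, P2ry12 and Csf1r). Predicted genes and genes named after clones were skipped except in the choice by list. Not every gene of the rule is described, and some results are not reported here. Other list members that are named were chosen after their values were seen. Of the genes, 35546 were found in GENCODE M21.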

Additional observations from a re-analysis of the deposited data

How the results depend on the processing

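The genes past a size and their numbers depended on the processing. Counts are given here as a percent of the genes that passed the filters of each setting, beside 1.72% higher and 1.54% lower at 2-fold and 5.43% and 5.84% at 1.5-fold. After dropping a gene's top cell from every sum they were 1.16% and 2.85% at 2-fold and 3.57% higher at 1.5-fold. In the nearest plate columns they were 3.52% and 3.98%, and with a pseudocount of 5 CPM 0.964% were lower. With a mean of at least 50 CPM they were 0.902% (33 genes) and 0.738% (27), and 4.21% and 4.29% at 1.5-fold. With no filter they were 1.42% (507 genes) and 1.86% (663), and 2.57% (916) and 3.29% (1172). The cause was not tested. Leaving out 1 TH number asks for the same sign in 2 of 2, which is easier to meet: 3.28% to 4.01% were then higher and 3.56% to 3.75% lower at 2-fold, and 9.66% to 11.4% and 9.64% to 10.9% at 1.5-fold. Of the 98 and 88 genes, 41 and 44 also met the 2-fold rule in the nearest plate columns, 41 and 61 after dropping top cells, and 49 and 40 with each cell weighted alike.

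With the TH number as a replicate block, edgeR's quasi-likelihood test on the 6 sums called 0 genes higher and 0 lower of 12842, and 465 had an unadjusted p under 0.05. Without the block it also called 0 and 0, with 462. DESeq2 with the block called 130 genes higher and 1.12% lower of 13124 with an adjusted p, and 1541 had an unadjusted p under 0.05 (8.95% of the larger set with any p). Sums of the 2 groups with the same TH number come from the same deposited table, and their deviations from the group means correlated at 0.062 to 0.073, beside -0.0594 to -0.00788 for different TH numbers. Whether the number pairs cells in another way is not given in the sources used here.

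The homeostatic median of -0.022 was -0.055 with library sizes, -0.013 with DESeq2 size factors, -0.056 after dropping top cells, -0.015 with the stricter cell filter, -0.058 in the nearest columns, -0.016 without marker-carrying cells (chosen after seeing the data) and -0.038 to -0.011 without 1 TH number. The mitochondrial median was 0.23 in the nearest columns. The iron median of 0.025 turned to -0.0071 with library sizes, -0.013 without marker-carrying cells and -0.014 to 0.13 without 1 TH number. In the nearest columns Phactr2 turned to 0.21 and Fech to -0.70, and the share differences of Cdk6, Herc6 and Rab27a turned to 1.05, 0.098 and 3.59 points. Among these changes the cause was not tested. No other list median or share difference with 1 sign in all TH numbers turned, nor did any other named gene past the 1.5-fold rule. The share of 1 cell in a gene's reads (a median of 12.02% in plasma high and 9.25% in plasma low over tested genes) limits genes of low level.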
